A study of Mus musculus with 3 samples.

Results

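Conventional dendritic cells of type 1 (cDC1) were studied among immune cells sorted from the mouse pancreas, as cells that carried the receptor transcripts Xcr1 and Clec9a. They were 221 of the 14302 cell barcodes kept from 3 libraries. Members were chosen by their own counts of unique molecular identifiers (UMIs, each standing for 1 captured mRNA). A member had at least 1000 UMIs with no more than 30% of them mitochondrial, at least 2 UMIs of Xcr1 and Clec9a together and at least 3 UMIs of the class II gene H2-Ab1, and no UMI of Siglech, Cd79a, Cd3d, Cd3e, C1qa, C1qb or C1qc, which mark plasmacytoid dendritic cells, B cells, T cells and macrophages. Whatever these genes and the UMI limits say about the members was set by that choice and is given as a description only. The 3 libraries held live CD45+ pancreatic cells from mice injected intraperitoneally with phosphate-buffered saline (PBS), the vehicle control, or with whole β-glucan particles (WGP), a particulate yeast cell wall β-glucan, 3 days (3-day WGP) or 7 days (7-day WGP) before collection. The study's methods describe wild-type C57BL/6J mice of both sexes, young adults bought or bred for the work, while the labels give neither the strain, the sex and the age of the mice behind a library nor how many mice were pooled. No transgene, deletion or tumour was part of these groups.

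cDC1 develop under the transcription factors IRF8, BATF3 and ID2 and depend on the cytokine receptor FLT3. They take up material of dead cells through CLEC9A, present its peptides on MHC class I to CD8 T cells (cross-presentation), are drawn to XCL1-secreting lymphocytes through XCR1, and are a known source of IL-12, CXCL9 and CXCL10. In tissue they are replaced from circulating precursors, and after activation they express CCR7 and leave for the draining lymph node.

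Each group was 1 library, so no comparison between groups had replicates, none could be tested, and no p-value is given. Intervals are exact 95% intervals that cover counting error only. Gene levels are UMIs of the gene, as counts per 1000000 UMIs (CPM), summed over the members of a library, and triplets of values are in the order PBS, 3-day WGP, 7-day WGP. A log2 ratio was taken after adding 10 CPM to both sides, which understates the difference of low genes. It was computed for the 2544 genes with a mean of at least 50 CPM over the 3 libraries, and a gene was counted as higher or lower from a 2-fold difference on that scale. The libraries held 48219246 to 56849043 UMIs, and the members 1110882, 1013612 and 1361254 UMIs. Per member the median was 14554, 10258 and 18775 UMIs, so that a transcript was easier to see in a single 7-day WGP cell than in a 3-day WGP cell. No member barcode was shared between libraries. The mix of Xist-expressing and chromosome Y-expressing cells was unlike in the 3 libraries and moved with the groups. Cells with an Xist UMI and no chromosome Y UMI (Xist cells) were 39, 3 and 18 of the members, and cells with a chromosome Y UMI and no Xist UMI (Y cells) were 21, 61 and 42.

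The share of cDC1 in the sorted pancreatic cells differed between the 3 libraries by less than counting error. They were 70 of 5249 kept cells in PBS, which is 1.33% (1.04 to 1.68), 80 of 4879 in 3-day WGP, 1.64% (1.30 to 2.04), and 71 of 4174 in 7-day WGP, 1.70% (1.33 to 2.14). The log2 ratio of the shares was 0.30 (-0.18 to 0.78) for 3-day WGP to PBS, 0.35 (-0.15 to 0.85) for 7-day WGP to PBS and 0.05 (-0.43 to 0.53) for 7-day to 3-day WGP. All 3 intervals held 0, so a difference in share was not detectable at this number of cells. Cells that met the rule with at least 4 UMIs of Xcr1 and Clec9a were 1.14% (0.873 to 1.47), 1.21% (0.922 to 1.56) and 1.15% (0.849 to 1.52) of the kept cells. Among Y cells alone the share was 1.21% (0.750 to 1.84) in PBS, 2.43% (1.86 to 3.11) in 3-day WGP and 2.25% (1.63 to 3.03) in 7-day WGP. Among Xist cells it was 1.91% (1.36 to 2.61), 0.626% (0.129 to 1.82) and 1.49% (0.885 to 2.34). The point values of Xist cells and Y cells thus lay on opposite sides of PBS after WGP, which was not tested over replicates. Against PBS, the 3-day WGP share had a log2 ratio of -1.61 (-3.95 to 0.04) in Xist cells, with 3 members at 3 days, and of 1.01 (0.27 to 1.80) in Y cells. The 7-day WGP share had -0.36 (-1.25 to 0.48) in Xist cells and 0.90 (0.11 to 1.73) in Y cells. Both Xist intervals held 0, so a lower cDC1 share in Xist cells was not detectable. The type 2 conventional dendritic cells (cDC2, chosen by at least 2 UMIs of Cd209a) numbered 62, 20 and 73, those with Ccr7 and Fscn1 (CCR7 DC) 2, 12 and 21, and plasmacytoid dendritic cells (pDC, at least 3 UMIs of Siglech) 25, 19 and 27.

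**Figure D1:**
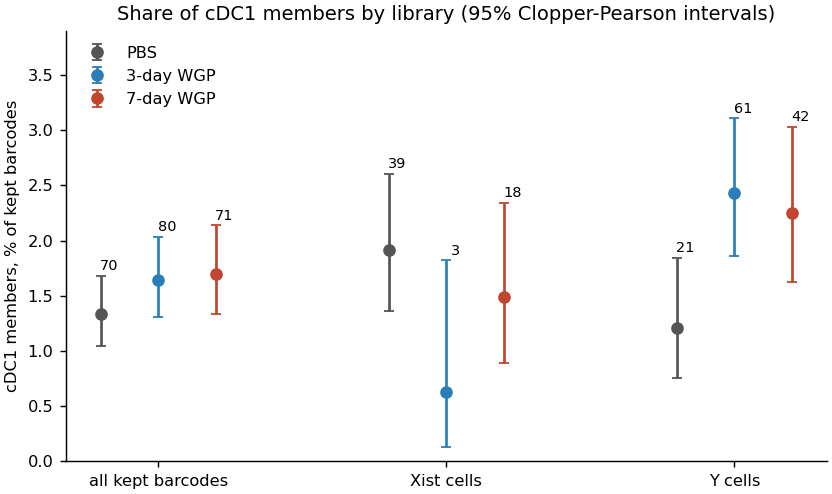
Share of the kept barcodes of each library that were cDC1 (vertical axis, percent), for all kept barcodes, Xist cells and Y cells, with exact binomial 95% intervals that cover counting error only and the number of members above each point. The points over all barcodes lie at 1.33%, 1.64% and 1.70% with overlapping intervals, while Xist cells go from 1.91% to 0.626% and Y cells from 1.21% to 2.43% between PBS and 3-day WGP. The intervals of Xist cells overlap too.

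The members carried the programme of cDC1 beyond the genes that chose them. FLT3, the growth factor receptor named as a marker of this cell type, was seen in 59 of 70, 57 of 80 and 64 of 71 members and stood at 158, 143 and 207 CPM. Irf8, the lineage-defining transcription factor, was at 2188, 2071 and 1751 CPM, Id2, a repressor of competing lineages, at 1267, 1277 and 1059 CPM, and Batf3, the partner that maintains Irf8 expression, at 207, 215 and 189 CPM. Naaa, a lysosomal amidase, was at 1578, 1332 and 1393 CPM, Ppt1, a lysosomal thioesterase, at 1012, 1047 and 926 CPM, and Wdfy4, which is required for cross-presentation of cell-associated antigen, at 684, 546 and 539.9 CPM. The genes that chose the members, Xcr1 at 387, 425 and 440 CPM and Clec9a at 232, 232 and 243 CPM, were seen together in 63, 62 and 52 members. Xcr1 lies at chr9:123852315-123862029 and Clec9a at chr6:129408862-129424763 (GRCm38), and both are protein-coding.

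Set beside the other dendritic cells of the same libraries, 15 genes stood furthest above the highest of cDC2, CCR7 DC and pDC in the library where they stood out least. They were Tlr3, Rab7b, Ppt1, Itgae, A530099J19Rik, Gcsam, Cadm1, Snx22, AC163354.1, Cd36, Sept3, Dbn1, Naaa, Rtl8b and Cd24a. Tlr3, the endosomal receptor for double-stranded RNA, was at 221, 158 and 137 CPM in cDC1 with 2.28, 0 and 1.20 CPM in cDC2 and 0, 0 and 0 CPM in pDC, and its smallest log2 ratio over the libraries was 3.71. Rab7b, a GTPase of late endosomes, followed with 3.38, Ppt1 with 3.19 and Itgae, which encodes the integrin chain CD103, with 3.07. Cadm1, an adhesion molecule of cDC1, had 2.46, Cd36, a scavenger receptor, 2.26, and Naaa 2.06. Irf8 did not separate cDC1 from pDC, which held 3833, 3680.4 and 2889.7 CPM, but did separate them from cDC2 at 14.9, 76.2 and 240.4 CPM. CCR7 DC held 0, 163 and 1279 CPM of Irf8, and the log2 ratio of cDC1 to them was only 0.45 at 7 days. Flt3 was not particular to cDC1 either, with 92.5, 148 and 73.3 CPM in cDC2, 252, 122 and 224 CPM in CCR7 DC and 91.4, 131 and 163 CPM in pDC. Batf3 was at 589, 196 and 287 CPM in CCR7 DC, above cDC1 in PBS and 7-day WGP. These values come from the cells that the marker rules sorted into groups, so they carry no test, and the CCR7 DC of PBS were 2 cells. The mix of sexes differed too. In PBS, cDC2 were 59 Xist and 2 Y cells, against 39 and 21 for cDC1.

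**Figure D2:**
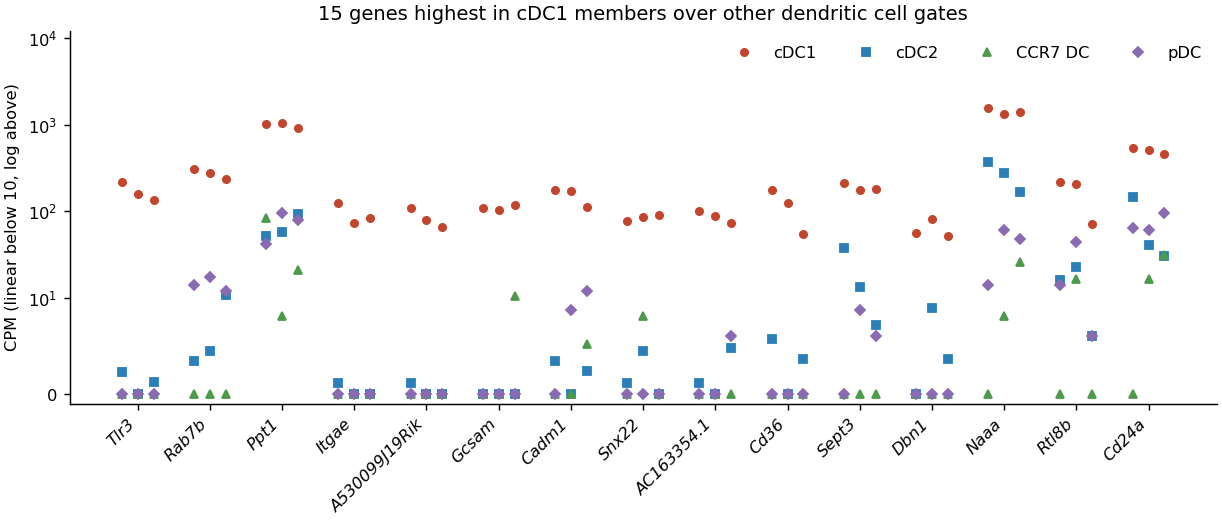
Level in CPM (vertical axis, linear below 10 and log above) of the 15 genes that stood furthest above the other dendritic cells, in cDC1, cDC2, CCR7 DC and pDC, with PBS, 3-day WGP and 7-day WGP from left to right at each gene. Every cDC1 point lies above the other points of its library, with Tlr3 furthest apart, and at 7 days Cd36 and Rtl8b stand at 55.1 and 72.0 CPM in cDC1.

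Not every member looked like a cDC1, above all in the 7-day WGP library and at the edge of the rule. The UMIs of Xcr1 and Clec9a had a median of 8, 6 and 9 per member and ran from 2 to 31, 2 to 57 and 2 to 47. Members with only 2 or 3 of these UMIs were 10, 21 and 23, and cells that met every other condition with 1 such UMI, just outside the rule, were 16, 15 and 37. In the 7-day WGP library the 23 members at the edge held 795 CPM of Irf8 against 2031 CPM in the 48 with at least 4 marker UMIs, 1292 against 57.9 CPM of S100a4 and 565 against 118 CPM of Ifitm1. Of those 23 cells, 11 also had at least 3 UMIs over 7 genes of cDC2 and monocytes (Cd209a, Sirpa, Clec10a, Mgl2, Csf1r, Fcgr1 and Cx3cr1), as did 3 of the 48, while 1 member of PBS and 2 of 3-day WGP had them. The rule therefore took in, at 7 days, cells whose other transcripts went against the label of cDC1, and what these cells were was not tested. Where a second value is given, it is for the members with at least 4 marker UMIs, of which there were 60, 59 and 48, or for the 60, 59 and 45 of these that also had under 3 of those cDC2 and monocyte UMIs (strict members).

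Transcripts of other cell types entered the members in small and uneven amounts. The 10 B cell markers summed to 511, 8481 and 303 CPM, with Cd79a at 0 by the rule and Ms4a1 at 0 in PBS and 3-day WGP, and 7290 of the 8596 UMIs at 3 days lay in 1 member. The 10 NK cell markers summed to 8.10, 118 and 16.9 CPM, the 10 T cell markers to 39.6, 45.4 and 2.94 CPM and the 8 neutrophil markers to 12.6, 3.95 and 2.20 CPM. The 16 acinar cell markers summed to 934, 354 and 175 CPM, and 655 of the 1038 UMIs in PBS lay in 1 member. The 14 cDC2 markers summed to 173, 265 and 555 CPM and the 18 monocyte and macrophage markers to 1469, 1797 and 1121 CPM, for which C1qa, C1qb and C1qc were 0 by the rule. Where these lists move with a result below, their part in it was not tested unless a value is given.

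**Figure D3:**
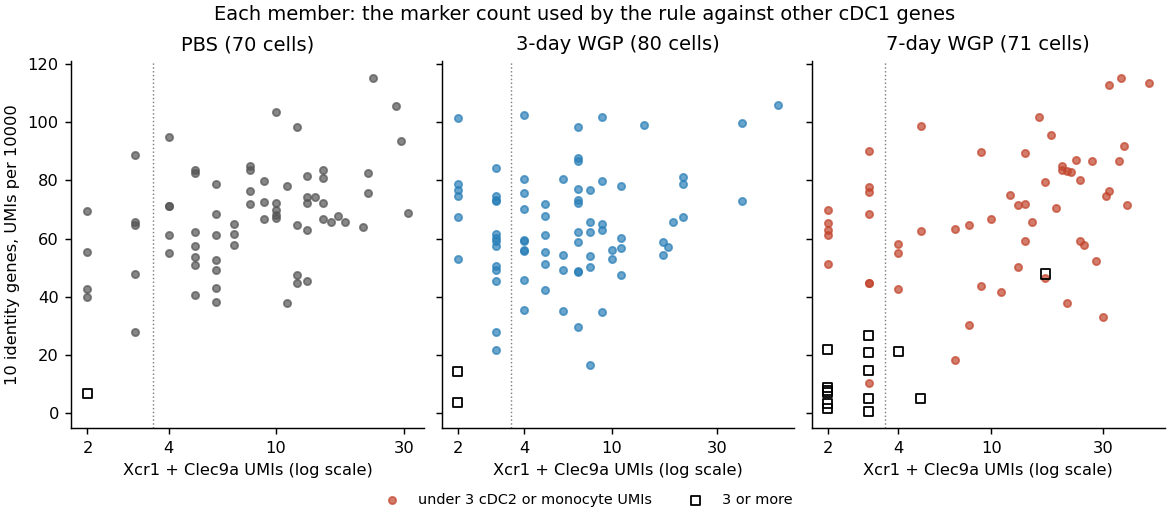
Each point is 1 member, with its Xcr1 and Clec9a UMIs on the horizontal axis (log) and its UMIs of 10 other cDC1 genes per 10000 UMIs on the vertical axis. Open squares are members with at least 3 cDC2 or monocyte UMIs and the dotted line lies just below 4 marker UMIs. The medians of the score are 67.4, 61.5 and 62.8, and the open squares (1, 2 and 14) lie low and mostly at the left edge, with the lowest members at 6.74, 3.81 and 0.611.

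Few genes differed from PBS at 3 days and more at 7 days. At 3 days 19 of 2544 genes were at least 2-fold higher than in PBS (0.747%) and 11 were lower (0.432%). At 7 days 50 were higher (1.97%) and 43 lower (1.69%). Between the 2 times, 36 were higher at 7 days (1.42%) and 21 lower (0.825%). With at least 4 marker UMIs the counts were 9 and 12 at 3 days, 33 and 46 at 7 days and 22 and 13 between the times, and 36 of the 50 higher and 39 of the 43 lower genes of 7 days were counted in both sets. The median log2 ratio of all 2544 genes was -0.01, 0.02 and 0.06 for the 3 comparisons. CPM bring each library to the same total, so these medians cannot show whether levels as a whole were shifted. A gene that was low in 2 libraries entered these counts only if the other library lifted its mean to 50 CPM, so the counts and medians of the lists below describe the measured genes and carry no support for a direction.

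Few measured genes of the cDC1 identity list passed the 2-fold limit, as was true of all genes. Of 24 measured genes of this list, 1 was higher and none lower at 3 days, and 1 was higher and 1 lower at 7 days. The backgrounds were 0.747% and 0.432% at 3 days and 1.97% and 1.69% at 7 days. Of the 28 listed symbols 26 were matched, while Cxx1a and Cxx1b were not matched under those names. Rtl8a and Rtl8b were present instead. Both were more than 2-fold lower at 7 days, as given below, and stand outside this count. The median log2 ratio of the 24 genes was -0.18 at 3 days and -0.15 at 7 days. In members with at least 4 marker UMIs it was -0.11 and -0.03. The gene that was higher was Cd8a, the CD8α chain that marks cDC1 of lymphoid organs more than those of tissues, at 9.90, 72.0 and 96.2 CPM in 7, 11 and 19 members. Cd8a reached the mean of 50 CPM only through the WGP libraries, so its count as higher followed from those libraries being high. The lower gene was Hepacam2, a surface immunoglobulin-family molecule, with 139.5 CPM (118 to 163) in PBS, 70.0 CPM (54.7 to 88.4) in 3-day WGP and 30.9 CPM (22.2 to 41.7) in 7-day WGP, seen in 57, 40 and 19 members. In the members with at least 4 marker UMIs Hepacam2 stood at 142, 79.1 and 39.9 CPM, and in Y cells at 126, 73.4 and 36.9 CPM. Itgae was at 124, 74.0 and 84.5 CPM, in 42, 27 and 29 members, Cadm1 at 178, 172 and 112 CPM and Tlr3 at 221, 158 and 137 CPM, all short of the 2-fold limit. Kit, the stem cell factor receptor, was at 72.9, 56.2 and 115 CPM, and Dpp4, a surface peptidase, at 125, 106 and 151 CPM. None of 16 transcription factors of dendritic cell lineages passed the limit at either time, with medians of -0.10 and -0.08. That count lies near the backgrounds given above.

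None of the measured genes for antigen presentation passed the limit. Of all genes, 0.747% were higher and 0.432% lower at 3 days, and 1.97% and 1.69% at 7 days. Counts of 0 in lists this small lie near those shares and are no result about the lists. The median log2 ratios of all genes were -0.01 and 0.02. For MHC class I and cross-presentation, 0 of 17 genes were 2-fold higher or lower at 3 or 7 days, with median log2 ratios of 0.06 and 0.38, and 14 of the 17 lay above 0 at 7 days. H2-K1, a class I heavy chain, was at 1049, 1091 and 1446 CPM and its light chain B2m at 1211, 1287 and 1659 CPM. Both stood higher in the cDC2, CCR7 DC and pDC of each library, with H2-K1 at 1122, 1811 and 2046 CPM in cDC2. Psme2, a proteasome activator subunit, was at 403, 508 and 737 CPM, the immunoproteasome subunits Psmb8 at 1243, 1371 and 1649 CPM and Psmb9 at 801, 781 and 1048 CPM, and the peptide transporter Tap1 at 303, 285 and 401 CPM. For MHC class II, 0 of 11 genes passed the limit, with medians of 0.01 and 0.10. H2-Aa, a class II chain, was at 9458, 9989 and 9981 CPM, its invariant chain Cd74 at 15313, 15415 and 16297 CPM and Ctss, the protease that trims the invariant chain, at 374, 412 and 710.4 CPM. These class I and class II levels differed by less than 2-fold between any pair of libraries.

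Several cytokine and chemokine transcripts were higher at 7 days, Il1b most of them. Of 6 measured genes of this list, 2 were higher (Il1b and Ccl4) and 1 lower (Cxcl10) at 3 days, and 4 were higher (Il1b, Cxcl9, Ccl4 and Cxcl10) at 7 days, against 0.747%, 0.432% and 1.97% of all genes. Il1b, the precursor of the inflammatory cytokine IL-1β (chr2:129364570-129371139, protein-coding), was at 63.0 CPM (49.1 to 79.6) in PBS, 140.1 CPM (118 to 165) in 3-day WGP and 1123 CPM (1067 to 1180.2) in 7-day WGP. The 7-day WGP library stood far above both others, and its interval did not meet theirs. The log2 ratio to PBS was 1.04 at 3 days and 3.96 at 7 days. The transcript was seen in 9 of 70, 22 of 80 and 49 of 71 members. Members with at least 4 marker UMIs held 68.3, 138 and 1063 CPM, so the 7-day level did not hang on the cells at the edge of the rule. The 3-day direction did not hold in Y cells. They held 277, 143 and 1503 CPM, with 3-day WGP below PBS, and Xist cells 7.63 and 177 CPM in PBS and 7-day WGP, while the 3 Xist cells of 3-day WGP were too few for a value. At 7 days the level was above PBS in both kinds of cell.

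To compare the number of Il1b-positive cells at equal depth, each cell was thinned to 1000 UMIs. Il1b was then seen in 2.86%, 7.50% and 36.6% of members, and in 12.9%, 27.5% and 69.0% without thinning. B cells, which should hold little Il1b, showed 0.114%, 0.983% and 2.84% after thinning and 0.515%, 2.95% and 8.13% without it. Median depths of these B cells were 4178, 6210 and 5549 UMIs. The share of members with Il1b was thus above the B cell share in each library, and the B cell share also was highest at 7 days. Free RNA, read from barcodes of at most 100 UMIs, held 105, 461 and 697 CPM of Il1b, and with its estimated part (6.47%, 4.51% and 1.22% of member UMIs) subtracted the log2 ratios to PBS were 0.95 at 3 days and 4.03 at 7 days. That part was estimated from acinar genes, most of whose PBS UMIs lay in a single member, so it is uncertain. Other dendritic cells held Il1b too. It stood at 239.9, 758 and 1692 CPM in cDC2, 0, 588 and 919 CPM in CCR7 DC and 35.2, 438 and 320.4 CPM in pDC, and whether the time course differed between these cells was not tested.

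Cxcl9, a chemokine for CXCR3-bearing T and NK cells (chr5:92321347-92328079, protein-coding), was at 127 CPM (107 to 149.7) in PBS, 169.7 CPM (145 to 197) in 3-day WGP and 552 CPM (513 to 593) in 7-day WGP. PBS and 3-day WGP overlapped in their intervals and 7-day WGP lay above both. Its log2 ratio to PBS was 2.04 at 7 days and 1.57 in members with at least 4 marker UMIs, which held 138, 62.8 and 429 CPM. It was seen in 10, 13 and 38 members, and after thinning in 5.71%, 8.75% and 25.4% of them, against 0%, 0% and 1.32% of B cells (1748, 1017 and 529 cells, so that a count of 0 allows a share of up to 0.172% and 0.295% in the first 2). cDC2 had 2.28, 44.8 and 1047 CPM and CCR7 DC 0, 326 and 1117 CPM. Ccl4, a chemokine for T cells and monocytes, was at 32.4, 81.9 and 434 CPM in 9, 12 and 25 members, with 27.3, 100.5 and 390.2 CPM in those with at least 4 marker UMIs and 126, 103 and 632 CPM in Y cells. Cxcl10, the second CXCR3 ligand of this list, did not follow Cxcl9. It was at 52.2, 11.8 and 126 CPM in 6, 4 and 12 members, its 7-day log2 ratio of 1.13 was 0.09 with at least 4 marker UMIs, and its direction turned in Xist cells and in Y cells taken alone. It reached the mean of 50 CPM only through the 7-day WGP library.

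IL-12 was barely seen. Il12b, the p40 chain, had 0, 2 and 12 UMIs in 0, 1 and 2 members, and Il12a 0 UMIs in every library, which allows up to 2.70, 2.96 and 2.20 CPM. Il6 had 3, 1 and 0 UMIs and Il10 1, 1 and 0 UMIs. Il18, a partner cytokine of IL-12, was at 42.3, 32.6 and 16.9 CPM, Tnf at 21.6, 11.8 and 5.88 CPM and Tgfb1 at 85.5, 74.0 and 83.0 CPM. Ccl5 was at 2.70, 74.0 and 28.7 CPM in 2, 8 and 12 members, below the mean of 50 CPM, and at 2.93, 86.7 and 6.03 CPM in strict members. Cxcl16, the ligand of CXCR6, was at 86.4, 109.5 and 166 CPM.

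**Figure D4:**
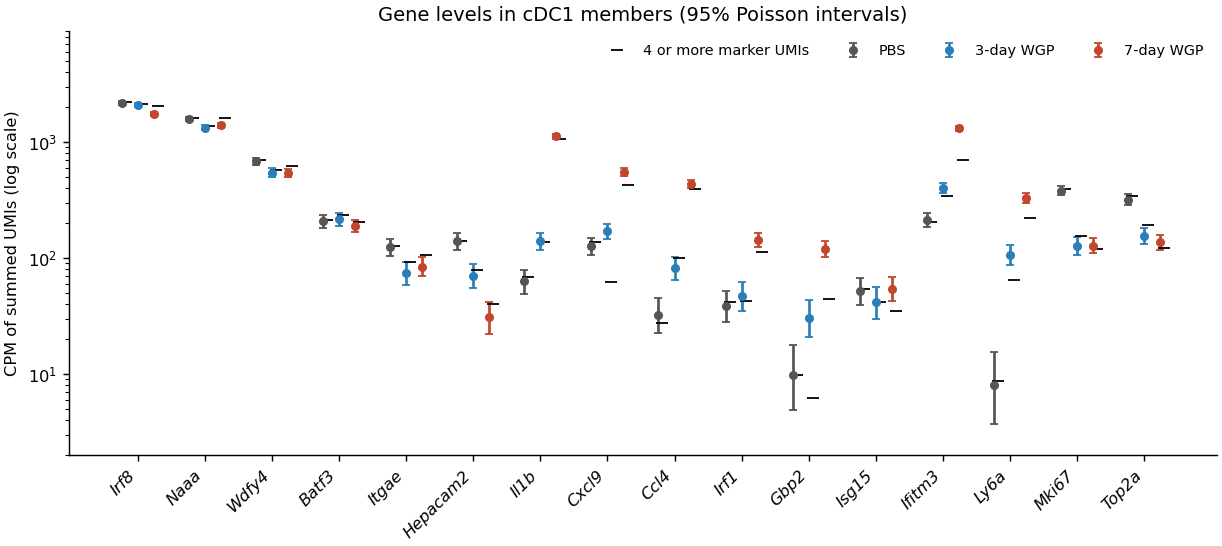
Level in CPM (vertical axis, log) of 16 genes in the cDC1 of PBS, 3-day WGP and 7-day WGP, as points with exact Poisson 95% intervals for all members and black dashes for members with at least 4 Xcr1 and Clec9a UMIs. Il1b reaches 1123 CPM and Cxcl9 552 CPM at 7 days, with the Il1b dash on its point, while the 7-day dashes of Gbp2 and Ifitm3 lie well below their points.

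Irf1 and Cxcl9, which are known to answer interferon-γ, were higher at 7 days. Of 4 measured interferon-γ-induced genes, 1 was higher at 3 days (Gbp2) and 3 at 7 days (Gbp2, Irf1 and Cxcl9), against 0.747% and 1.97% of all genes, with median log2 ratios of 0.31 and 1.85, or -0.19 and 1.35 with at least 4 marker UMIs. Irf1, a transcription factor that interferon-γ induces, was at 38.7 CPM (28.0 to 52.1) in PBS, 47.4 CPM (34.9 to 62.8) in 3-day WGP and 144 CPM (125 to 166) in 7-day WGP, and at 42.0, 42.7 and 112 CPM with at least 4 marker UMIs. Gbp2, a guanylate-binding GTPase, was at 9.90, 30.6 and 120.5 CPM in 3, 6 and 22 members, but at 9.76, 6.28 and 44.6 CPM with at least 4 marker UMIs, where the 3-day value lay below PBS, and at 9.76, 6.28 and 24.1 CPM in strict members. Gbp2 and Irf1 reached the mean of 50 CPM only through the 7-day WGP library, so their place in the count and in the medians followed from that library being high. Read in Xist cells or in Y cells alone, 1 of these genes was counted as higher at 7 days (Cxcl9 in Xist cells, Gbp2 in Y cells). The mean of 50 CPM was applied again within those cells. In Xist cells Gbp2 and Irf1 fell short of it and got no count. Irf1 stood at 30.5 and 65.0 CPM in the Xist cells of the PBS and 7-day WGP libraries and at 73.7, 34.8 and 149 CPM in Y cells, Gbp2 at 14.0 and 85.7 CPM and 0, 6.44 and 151 CPM, and Cxcl9 at 81.4 and 679.6 CPM and 316, 59.2 and 539 CPM. The fourth gene, Ciita, the master regulator of class II genes, was at 233, 215 and 281 CPM. Several genes of the list lay below the 50 CPM mean and got no count. The GTPase Irgm1 had 36, 21 and 131 UMIs in 21, 20 and 43 members, Iigp1 6, 3 and 116 in 1, 1 and 14, Igtp 16, 9 and 63 in 13, 8 and 28 and Gbp5 0, 5 and 48 in 0, 2 and 14. In strict members Irgm1 stood at 34.2, 16.3 and 90.5 CPM, Iigp1 at 5.86, 0 and 37.2 CPM, Igtp at 15.6, 5.02 and 27.1 CPM and Gbp5 at 0, 0 and 10.1 CPM. Socs1, the feedback inhibitor of this pathway, had 11, 13 and 57 UMIs, and Cd274, which encodes PD-L1, 2, 23 and 46 UMIs, or 8.79, 13.8 and 39.2 CPM and 1.95, 20.1 and 14.1 CPM in strict members.

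Of 13 interferon-stimulated genes, 0 were higher or lower at 3 days and 2 were higher at 7 days, Zbp1 among them, against 0.747% and 1.97% of all genes, with median log2 ratios of 0.0042 and 0.03. Zbp1, a nucleic acid sensor, was at 42.3, 41.4 and 114 CPM and at 43.9, 33.9 and 80.4 CPM in strict members, where it differed from PBS by less than 2-fold, and it too reached the mean of 50 CPM only through the 7-day WGP library. By contrast Isg15, a ubiquitin-like protein of the type I interferon response, was at 52.2, 41.4 and 54.4 CPM, and Irf7, its amplifying transcription factor, at 63.9, 64.1 and 60.2 CPM, with less than 2-fold between any pair of libraries. In the same libraries Isg15 stood at 60.5, 161 and 192 CPM in cDC2 and 84.1, 188 and 569 CPM in CCR7 DC.

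The promoters of these genes are shown because interferon-γ acts at gamma-activated sites (GAS) and type I interferon through the interferon-stimulated response element (ISRE). Windows of 250 bases before to 50 bases after each RefSeq gene start (GRCm38.p6) were searched on both strands for GAAA followed by any 2 bases and a second GAAA (ISRE-like) and TTCNNNGAA (GAS-like, the same on both strands, where N is any base). The first occurred in 1131 of 32851 windows (3.44%) and the second in 2726 (8.30%). Of the 21 interferon-γ-induced genes 13 had a window, and 10 held an ISRE-like and 7 a GAS-like match. Of the 30 interferon-stimulated genes 23 had one, and 11 and 5 held a match. The 100 bases before the start are printed 5′ to 3′ on the strand of the gene, with the match in capitals, for Irf1 at chr11:53769914-53770013 (plus strand), for Gbp2 at chr3:142620563-142620662 (plus strand) and for Isg15 at chr4:156200819-156200918 (minus strand):
Irf1: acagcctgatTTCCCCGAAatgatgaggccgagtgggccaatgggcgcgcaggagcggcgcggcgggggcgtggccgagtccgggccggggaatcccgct
Gbp2: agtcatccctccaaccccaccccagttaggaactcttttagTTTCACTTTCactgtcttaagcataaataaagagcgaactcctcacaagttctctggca
Isg15: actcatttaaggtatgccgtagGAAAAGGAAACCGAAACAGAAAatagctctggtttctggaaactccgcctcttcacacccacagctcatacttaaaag
The Irf1 stretch holds a GAS-like match, the Gbp2 stretch an ISRE-like match on the opposite strand and the Isg15 stretch 3 overlapping ISRE-like matches. Of the 3 genes, the pair with the higher levels at 7 days, Irf1 and Gbp2, have 1 match each of different kinds. The Cxcl9 and Il1b windows held neither run of letters, which says nothing about the factors. A match describes the letters and was not tested for binding.

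The interferon-inducible transmembrane genes and their company were among the top genes at 7 days, and the level of several of them depended on cells at the edge of the rule. Ifitm2 was at 63.9, 210.1 and 815 CPM and 56.6, 177 and 627 CPM with at least 4 marker UMIs, and Ifitm3, which restricts entry of viruses into cells, at 213, 404 and 1309 CPM and 204, 344 and 695 CPM. Ifitm1 (chr7:140967221-140969825) had no UMI in PBS and 3-day WGP members and 298 UMIs in 20 members at 7 days. That is at least 81.1-fold higher than PBS when 0 is read as 3 UMIs per library, and its level was 219 CPM over all members and 118 CPM with at least 4 marker UMIs. Ly6a, the surface antigen Sca-1 that interferons induce, was at 8.10 CPM (3.70 to 15.4) in PBS, 107 CPM (87.4 to 129) in 3-day WGP and 328 CPM (299 to 360.3) in 7-day WGP, at 8.79, 65.3 and 223 CPM with at least 4 marker UMIs and at 8.79, 65.3 and 129.7 CPM in strict members, with 0 CPM in Y cells of PBS and 267 CPM in Y cells of 7-day WGP. Plac8, a cysteine-rich protein of myeloid cells and pDC, was at 244, 544 and 1062 CPM and 248, 462 and 921 CPM with at least 4 marker UMIs, and in Y cells at 316, 493 and 1017 CPM. Dnase1l3, a secreted nuclease of dendritic cells, was at 40.5, 145 and 219 CPM, though in only 18, 13 and 35 members, and at 7 days it was 556 CPM in Xist cells and 86.6 CPM in Y cells. S100a4, a calcium-binding protein of cDC2 and monocytes, was at 44.1, 106 and 337 CPM over all members but at 42.0, 74.1 and 57.9 CPM with at least 4 marker UMIs. Ms4a4c went in the same way from 15.3, 19.7 and 129 CPM to 15.6, 13.8 and 37.0 CPM, and Wfdc17, a small secreted inhibitor of myeloid cells, from 40.5, 49.3 and 276 CPM to 37.1, 36.4 and 134 CPM. Serpina3g, a protease inhibitor, kept its 7-day level, at 30.6, 36.5 and 144 CPM and 33.2, 28.9 and 131 CPM. The cDC2 marker list, summed to 173, 265 and 555 CPM over all members, moved with these genes. In strict members Ifitm3 stood at 204, 344 and 506 CPM, S100a4 at 42.0, 74.1 and 31.2 CPM and Il1b, for comparison, at 68.3, 138 and 1124 CPM. Ifitm1, Ms4a4c, Wfdc17 and Serpina3g reached the mean of 50 CPM only through the 7-day WGP library. Their place among the top genes followed from that library being high.

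Several targets and feedback regulators of NF-κB, Bcl2a1b and Cd83 among them, were higher at 7 days. Of 10 measured, 1 was higher at 3 days (Ccl4) and 5 at 7 days (Nfkbia, Bcl2a1b, Traf1, Cd83 and Ccl4), none was lower, against 0.747% and 1.97% higher among all genes, and the median log2 ratio was 0.27 at 3 days and 0.87 at 7 days, or 0.77 with at least 4 marker UMIs. Nfkbia, the inhibitor that NF-κB induces against itself, was at 194 CPM (169 to 221) in PBS, 229.9 CPM (201 to 261) in 3-day WGP and 402 CPM (369 to 437) in 7-day WGP, at 194, 188 and 325 CPM with at least 4 marker UMIs and at 194, 188 and 339 CPM in strict members. Bcl2a1b, a survival factor, was at 104, 125 and 284 CPM and at 87.9, 129 and 258 CPM in strict members, and Traf1, a signalling adaptor of TNF receptors, at 95.4, 119 and 229.9 CPM and 88.8, 113 and 185 CPM. In strict members Nfkbia and Traf1 thus fell short of the 2-fold limit at 7 days. Socs3, the feedback inhibitor of STAT3 signalling, was at 4.50, 24.7 and 135 CPM in 3, 11 and 35 members. It reached the mean of 50 CPM only through the 7-day WGP library. Bcl2a1b belongs to a family of near-identical copies between which reads can be shared, so its level is uncertain.

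Costimulatory genes were sparse, and a small number of members carried the transcripts of maturation. Cd83, a maturation marker that stabilises surface MHC class II and CD86, was at 97.2 CPM (79.8 to 117) in PBS, 169 CPM (144 to 196) in 3-day WGP and 226 CPM (201 to 252) in 7-day WGP, with 94.7, 153 and 219 CPM at 4 or more marker UMIs. It was the 1 gene of 5 measured on the costimulation list that was higher at 7 days, against 1.97% of all genes. Cd86, the CD28 ligand, was at 113, 134 and 144 CPM, and Havcr2, the receptor TIM-3 of cDC1, at 104, 104 and 104 CPM. Cd40 had 15, 19 and 68 UMIs in 9, 8 and 25 members, Tnfsf9, the 4-1BB ligand, 6, 5 and 45 in 5, 5 and 16 and Ccr7, the lymph node homing receptor, 5, 60 and 49 in 2, 3 and 4. In strict members Cd40 stood at 13.7, 16.3 and 39.2 CPM, Tnfsf9 at 3.91, 6.28 and 9.05 CPM and Ccr7 at 0.976, 72.8 and 10.1 CPM. Tnfsf9 was at 110, 148 and 291 CPM in cDC2, against 33.1 CPM over all 7-day WGP members. Of 7 measured genes of dendritic cell maturation, 1 was higher at 3 days (Apol7c) and 4 at 7 days (Apol7c, Marcksl1, Serpinb6b and Traf1), against 0.747% and 1.97% of all genes. The medians were 0.59 and 1.19, or 0.39 and 0.92 with at least 4 marker UMIs. Apol7c and Marcksl1 reached the mean of 50 CPM only through the 7-day WGP library, so their place in the counts and medians followed from that library being high. Apol7c, which permeabilises phagosomes in cDC1, had 0 UMIs in PBS, 33 in 3 members of 3-day WGP and 211 in 9 members of 7-day WGP, at least 12.1-fold and 57.4-fold higher than a floor of 3 UMIs per library, and 109 of the 211 lay in 1 member. At 7 days these UMIs stood at 618 CPM in Xist cells and 0 CPM in Y cells. Apol7c was at 0, 122 and 585 CPM in CCR7 DC and at 0, 0 and 0 CPM in cDC2. Marcksl1, an actin regulator of maturing dendritic cells, was at 20.7, 47.4 and 109 CPM and at 21.5, 27.6 and 48.3 CPM in strict members, less than 2-fold above PBS there. Serpinb6b, a serine protease inhibitor, was at 34.2, 68.1 and 186 CPM and 30.3, 76.6 and 205 CPM.

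Immediate early genes, which answer stimulation and also cell handling, were uneven. Of 21, 1 was higher at 3 days (Dusp1) and 4 at 7 days (Dusp1, Junb, Atf3 and Zfp36), against 0.747% and 1.97% of all genes, and the medians were 0.06 and 0.05. Dusp1, a phosphatase of MAP kinases, was at 105, 280.2 and 359 CPM and Junb, an AP-1 subunit, at 237, 435 and 508 CPM. Zfp36, which destabilises cytokine mRNA, was at 209.7, 307 and 438 CPM and at 208, 276 and 338 CPM in strict members, where it was below the limit. Fos was at 605, 1049.7 and 1109 CPM, Jun at 438, 454 and 408 CPM and the heat shock gene Hspa1a at 945, 513 and 892 CPM, below the limit in both comparisons with PBS.

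None of 10 measured chemokine and cytokine receptors passed the limit, while the sparse receptor transcripts Il4ra and Il2rg had more UMIs at 7 days. Of all genes, 0.747% were higher and 0.432% lower at 3 days, and 1.97% and 1.69% at 7 days. Counts of 0 in the small lists of this paragraph lie near those shares. Ccr2, the receptor that draws myeloid cells from blood, was at 583, 473 and 411 CPM, Ifngr1 at 374, 386 and 303 CPM and Cxcr3 at 85.5, 79.9 and 58.8 CPM. Below the mean of 50 CPM, Il4ra had 12, 20 and 106 UMIs in 9, 14 and 40 members and Il2rg, the common cytokine receptor chain, 11, 18 and 101 in 7, 11 and 33. In strict members they stood at 9.76, 16.3 and 69.4 CPM and 9.76, 12.6 and 35.2 CPM. For β-glucan and C-type lectin sensing, 0 of 6 genes passed, with medians of -0.01 and 0.19. The signalling adaptor Fcer1g stood at 246, 356 and 497 CPM and at 229, 303 and 233 CPM in strict members, its relative Tyrobp at 636, 717 and 960.1 CPM, the kinase Syk at 36.9, 40.4 and 55.1 CPM and Card9, which links these receptors to NF-κB, at 3.60, 6.91 and 8.08 CPM. Clec4n, which encodes Dectin-2, had 0, 0 and 3 UMIs, and Clec7a, the Dectin-1 gene, was not analysed here. Of 3 measured Toll-like receptor genes and adaptors, 0 passed, and Tlr11, which recognises profilin of protozoa in cDC1, had 40, 46 and 78 UMIs.

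Genes of energy metabolism lay slightly above PBS at 7 days. None of 23 genes of oxidative phosphorylation passed the limit, while 21 lay above 0 at 7 days and the median log2 ratio was -0.01 at 3 days and 0.28 at 7 days. Of all genes, 1.97% were higher and 1.69% lower at 7 days, with a median of 0.02, so a count of 0 lies near that share. For 10 genes of glycolysis the medians were -0.0032 and 0.31, with none past the limit against PBS. The median number of genes seen per member was 3280, 2587.5 and 3645. It was above PBS at 7 days, as these values were, but below PBS at 3 days, where they stayed near PBS. Its part in them was not tested.

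Of 25 measured cell cycle genes, 1 was lower at 3 days (Mki67) and 10 were lower at 7 days (Mki67, Top2a, Stmn1, Birc5, Ccnb2, Ube2c, Cenpf, Hmgb2, H2afx and Hmgn2), against 0.432% and 1.69% of all genes, none was higher, and the medians were -0.48 and -0.56, or -0.32 and -0.63 with at least 4 marker UMIs. Mki67, the Ki-67 antigen of cycling cells (chr7:135689784-135716361, protein-coding), was at 382 CPM (346 to 419.8) in PBS, 127 CPM (106 to 151) in 3-day WGP and 128 CPM (109.5 to 148) in 7-day WGP, and at 393, 154 and 119.6 CPM with at least 4 marker UMIs. Both WGP libraries lay below PBS and their intervals overlapped each other. Top2a, the topoisomerase of chromosome segregation, was at 319, 155 and 137 CPM, Ccnb2, a mitotic cyclin, at 104, 61.2 and 22.0 CPM and Hmgb2, a chromatin protein of proliferating cells, at 1520.4, 966 and 713 CPM. Of the genes of DNA replication, Mcm3, a subunit of the replicative helicase, was at 74.7, 71.0 and 117 CPM, and Pcna, the sliding clamp of replication, at 74.7, 72.0 and 110.2 CPM. Levels of the ribonucleotide reductase subunits were 67.5, 45.4 and 49.95 CPM for Rrm1 and 76.5, 57.2 and 61.0 CPM for Rrm2, and Pclaf, a partner of Pcna, had 207, 146 and 191 CPM. Cells with at least 5 UMIs of Mki67 and Top2a together were 20 of 70, 9 of 80 and 12 of 71 members, while cells with at least 1 were 32, 31 and 26.

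Within Xist cells and within Y cells these values were not the same, and the difference between them was not tested. Xist cells held 479.7 and 186 CPM of Mki67 in PBS and 7-day WGP, and Y cells 182, 131 and 126 CPM. Top2a stood at 409.7 and 186 CPM in Xist cells and at 126, 148 and 142 CPM in Y cells. Of the 10 cell cycle genes lower at 7 days, 1 was counted when Y cells alone were read, and 1 when members with up to 3 UMIs of the macrophage genes C1qa, C1qb and C1qc were let in. In cDC2 Mki67 was at 186, 31.4 and 42.1 CPM. Those cDC2 held 59, 3 and 20 Xist cells and 2, 11 and 45 Y cells. Their difference over time thus cannot be told apart from the mix of sexes. Other genes of division lay among the lowest after WGP, such as the histone genes Hist1h1b at 233, 76.0 and 111 CPM and Hist1h2ap at 122, 63.1 and 26.4 CPM, and the spindle genes Kif11 at 95.4, 25.7 and 30.9 CPM and Nusap1 at 125, 56.2 and 37.5 CPM. Histone genes of these clusters are near-identical and many lack a poly(A) tail, so their UMIs are uncertain.

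**Figure D5:**
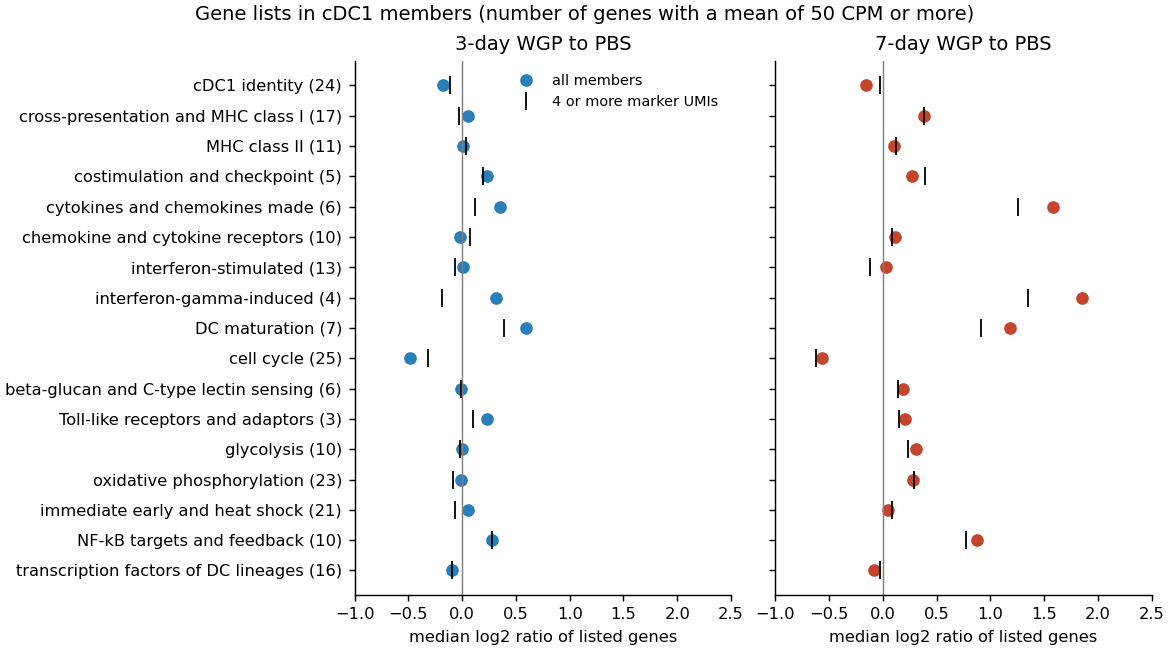
Median log2 ratio to PBS (horizontal axis, 10 CPM added) over the measured genes of 17 lists in the cDC1 of 3-day WGP (left) and 7-day WGP (right), as points for all members and bars for members with at least 4 marker UMIs, with the number of genes in brackets. At 7 days the interferon-γ-induced, cytokine, maturation and NF-κB lists lie furthest right, the interferon-γ list at 1.85 over 4 genes, the cell cycle list lies left at -0.56, and the identity, MHC class II and interferon-stimulated lists sit near 0. Gbp2, Irf1, Cxcl10, Apol7c and Marcksl1 were measured only because the 7-day WGP library was high. Their part in the rightward positions was therefore set in advance. Cxcl9, Ccl4 and Traf1 each stand in more than 1 of these lists.

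Apart from cell division, the genes lowest at 7 days included several that most PBS members expressed. Kctd14, a potassium channel tetramerisation-domain protein, was at 115, 63.1 and 26.4 CPM, and in Y cells at 117, 68.2 and 24.2 CPM. Rtl8a, a gene derived from a retrotransposon, stood at 276, 197 and 90.4 CPM and its neighbour in sequence Rtl8b at 217, 204 and 72.0 CPM, and because they are near-identical copies their split is uncertain. Cd36 was at 176, 125 and 55.1 CPM, seen in 60, 61 and 25 members, and was also 1 of the 15 genes that set cDC1 apart from other dendritic cells. S100a10, the annexin A2 partner, was at 511, 458 and 208 CPM, Trf, which encodes transferrin, at 129.6, 114 and 48.5 CPM, and Nsmaf, an adaptor of TNF receptor signalling, at 91.8, 86.8 and 36.0 CPM. For Kctd14, Cd36 and S100a10 the 7-day level lay below both other libraries over all members, with at least 4 marker UMIs and in Y cells. With at least 4 marker UMIs Cd36 stood at 177, 137 and 70.3 CPM and S100a10 at 495, 438 and 150 CPM, and in Y cells they stood at 182, 111 and 43.9 CPM and 507, 487 and 175 CPM. The acinar gene Ctrb1, at 174, 50.3 and 19.8 CPM, had 149 of its 193 PBS UMIs in 1 cell, and its 3-day log2 ratio of -1.61 became 0.084 without the member highest for it in each library. In 3-day WGP, Ly6c2 and Txndc5 were at 123 and 138 CPM with 73 of 125 and 72 of 140 UMIs in 1 member each.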

How the data were processed

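Live CD45+ cells of mouse pancreas were profiled with 10x Genomics 3′ single-cell RNA sequencing in 3 libraries, 1 per group. The authors deposited unfiltered matrices of UMI counts for 31053 genes, made with Cell Ranger 3.1.0 on mm10 per the labels, and Seurat is named in their processing notes. The counts carry no normalization, and 0 columns of values were left unused. Reads of near-identical genes are not resolved by this counting.

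Kept barcodes, members and the comparison gates (cDC2, CCR7 DC, pDC and B cell) were found by the UMI rules given above. No doublet caller was part of the main result. UMIs were summed over members and given as CPM with exact Poisson intervals, and shares with Clopper-Pearson intervals. With 1 library per group no test was run. Named genes were all list genes with a mean of at least 50 CPM, sparser ones of the identity, costimulation, cytokine, receptor and interferon lists with their UMIs, the 10 highest and 10 lowest log2 ratios of each comparison, and the 15 genes furthest above other dendritic cells, leaving out mitochondrial, ribosomal, immunoglobulin and sex-linked genes from the ranks. The members, lists and rules were chosen with earlier results of these data known. Xist and Y cell levels needed 10 members. Free RNA was profiled in barcodes of at most 100 UMIs and came to 6.47%, 4.51% and 1.22% of member UMIs, estimated from acinar genes. This estimate leans on single cells, since 1 member held 655 of the 1038 acinar UMIs in PBS and 1 held 100 of the 238 in 7-day WGP. Values of some listed genes are not reported here. Scripts were tested on simulated data. Alternatives covered the UMI, mitochondrial, marker and C1q limits, removal of high doublet scores, each sex, removal of Ccr7+ or cycling members, scaling, free RNA, the CPM minimum and the added CPM. Leaving out members with cDC2 or monocyte markers, members with other foreign transcripts and the cell highest for a gene was chosen after the data were seen. Promoter windows were RefSeq, GRCm38.p6, and gene coordinates GENCODE on GRCm38. Python 3.11.15, numpy 2.4.6, scipy 1.17.1, pandas 2.3.3, scanpy 1.11.5 and matplotlib 3.10.9 were used.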

Additional observations from a re-analysis of the deposited data

Results flagged for a closer look

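The share of cDC1 lay on opposite sides of PBS in Xist cells and in Y cells, though both Xist intervals also covered no difference. For 3-day WGP to PBS its log2 ratio was -1.61 (-3.95 to 0.04) in Xist cells and 1.01 (0.27 to 1.80) in Y cells. For 7-day WGP to PBS it was -0.36 (-1.25 to 0.48) and 0.90 (0.11 to 1.73). Only 3 of the 479 kept Xist cells of 3-day WGP were members. The difference between the sexes was not tested, since each group was 1 library.

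Cxcl10 lay on opposite sides of PBS at the 2 times, with log2 ratios of -1.51 at 3 days and 1.13 at 7 days, and was seen in 6, 4 and 12 members. Cdk1, the kinase that drives mitosis, differed between the sexes at 7 days, with a log2 ratio to PBS of -1.58 in Xist cells and 1.17 in Y cells, at 126 and 35.5 CPM in Xist cells and 21.7 and 61.2 CPM in Y cells. Neither difference was tested.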

How the results depend on the processing

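No paired analysis was possible because each group was 1 library. The count of 4 cytokine genes higher at 7 days stayed within 1.5 times, at 3 to 6, under the alternatives that gave it a value. Few members had at most 10000 UMIs (15, 36 and 8), and at 7 days they gave no gene values. With that limit the log2 ratios of the share were 1.44 (3-day WGP to PBS), -0.41 (7-day WGP to PBS) and -1.85 (7-day to 3-day WGP). In Xist cells they were -1.61, -0.36 and 1.25, and in Y cells 1.01 and 0.90 against PBS. Genes higher at 3 days, 19, became 83 with at most 10000 UMIs, 9 with at least 4 marker UMIs, 36 in Y cells, 32 without members holding an Mki67 or Top2a UMI, 11 without members with cDC2 or monocyte markers, 10 as the mean over cells, 39 from a mean of 20 CPM, 73 with no minimum and 10 with 50 CPM added. Genes lower at 3 days, 11, became 134 (at most 10000 UMIs), 30 (Y cells), 7 (no cycling members), 20 (mean over cells), 34, 60 and 4 (the 3 last settings). Genes higher at 7 days, 50, became 91 from 1 marker UMI, 33 from 4, 84 in Xist cells, 89 in Y cells, 82 without cycling members, 105 from 20 CPM and 157 with no minimum. Genes lower at 7 days, 43, became 24 with up to 3 C1q UMIs, 81 in Xist cells, 20 without cycling members, 91 from 20 CPM, 130 with no minimum and 20 with 50 CPM added. Between the times, the 36 higher became 22 (at least 4 marker UMIs), 61 (Y cells), 70 (20 CPM), 106 (no minimum) and 21 (50 CPM added), and the 21 lower became 13, 12 (C1q), 39, 73 and 4. The 3 interferon-γ genes became 1 in Xist cells, where Gbp2 and Irf1 fell short of the minimum mean, 1 in Y cells, 7 from 20 CPM and 11 with no minimum. The 10 cell cycle genes became 1 with C1q, 1 in Y cells, 0 without cycling members and 4 with 50 CPM added. Without thinning, Il1b was seen in 12.9%, 27.5% and 69.0% and Cxcl9 in 14.3%, 16.25% and 53.5% of members, and at 2000 UMIs Cxcl9 in 36.2% at 7 days. Single log2 ratios turned sign as follows. With at most 10000 UMIs at 3 days, Ly6c2 was -0.45, Socs3 -0.86, Hist1h1b 1.54, Hist1h2ae 0.41, Nusap1 0.61, S100a4 -0.11 and Txndc5 -0.65. In Y cells at 3 days, Il1b was -0.91, Ccl4 -0.26, Socs3 -0.18, Hist1h2ae 0.23 and Nusap1 0.93, and at 7 days Cxcl10 -0.30, Top2a 0.16, Ube2c 0.34, Cenpf 0.70, Hist1h1b 0.14, Hist1h2ae 0.70, Nusap1 0.73, 2210010C04Rik 0.11 and Hist1h2ap 0.67, and Apol7c was -1.94 between the times. In Xist cells Cxcl10 was -0.17 at 7 days. With at least 4 marker UMIs, Gbp2 was -0.28 and Ly6c2 -0.49 at 3 days, and Ly6c2 1.81 and S100a4 -0.31 between the times, where Ly6c2 was 0.57 from 1 marker UMI. Without cycling members at 3 days, Ctrb1 was 0.12, Hist1h1b 1.48, Hist1h2ae 0.18 and Txndc5 -0.088, and at 7 days Cxcl10 -0.39, Hmgb2 0.013, Hist1h1b 0.99, Hist1h2ae 0.39 and Racgap1 0.61. Without members with cDC2 or monocyte markers, Gbp2 was -0.34 at 3 days and S100a4 -0.63 between the times. With free RNA subtracted Clps was 1.25 at 7 days, and Ctrb1 was 0.084 at 3 days without its highest cell. Apart from the smaller number of members or the changed limit itself, the cause was not tested.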
